A study of Mus musculus with 6 samples.

Results

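Carbonic anhydrases are zinc enzymes that interconvert carbon dioxide and water with bicarbonate and a proton. The 9 genes described here (Car2, Car3, Car4, Car5b, Car8, Car9, Car12, Car13 and Car14) were taken by gene symbol from a table of 32244 genes, which lists 16 genes of this family, and the rule used no measured value, although earlier results of these data were known when it was written. They were measured in epididymal white adipose tissue, a visceral fat depot of male mice, by bulk mRNA sequencing. The 2 groups were Eepd1 knockout mice (EKO) and wild-type mice (WT), both C57BL/6J and both kept on a high-fat diet for 3 months, with 3 libraries per group. The labels give no age, do not say which part of Eepd1 was deleted or in which cells, and do not say whether each library came from 1 animal, and p-values here therefore describe spread among libraries, which may be technical.

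The family is divided by where its enzymes work. Car2, Car3 and Car13 are cytosolic, Car5b is mitochondrial, Car4 is tethered to the outer face of the plasma membrane by a lipid anchor, and Car9, Car12 and Car14 span that membrane with their catalytic side outwards. Car8 has lost catalytic activity and binds the inositol trisphosphate receptor. In fat, Car3 is an abundant adipocyte transcript, and mitochondrial carbonic anhydrase is known as a source of bicarbonate for pyruvate carboxylase, an entry step of lipid and glyceride synthesis.

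Library totals ran from 17215072 to 18330206 counts, and 3 counts correspond to 0.154 to 0.192 CPM, the unit used here for a count divided by its library's total after edgeR's TMM scaling. Values per library are given in the order of replicates 1, 2 and 3. Eepd1 itself stood at 152, 47.7 and 116 CPM in EKO and at 244, 304 and 192 CPM in WT, so its transcript was lower but present in EKO. All 13 adipocyte markers and all 11 macrophage markers had counts in every library. Summed adipocyte markers ranged from 5523 to 13735 CPM in EKO and from 22001 to 32266 CPM in WT, while summed macrophage markers ranged from 6559.9 to 10864 CPM in EKO and from 1721 to 3704 CPM in WT. WT replicate 2 stood apart: 9 testis germ cell markers summed to 2079.6 CPM there and to between 0.354 and 109 CPM in the other libraries, and results that rest on it are given with and without it.

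Car3 made up most carbonic anhydrase transcript in every library and differed between the genotypes by more than any other member tested. Car5b and Car4 were also lower in EKO, Car9 and Car13 were higher, and Car8 was lower at a low level. In edgeR's quasi-likelihood test over 16121 genes no member passed an adjusted p of 0.05, as no gene did (background 0.0% higher and 0.0% lower), although 6 of the 8 tested members had an unadjusted p under 0.05. Those 6 were 4 lower (background 13.8% of all genes tested) and 2 higher (background 18.9%). In the same 6 the genotypes did not overlap, 4 with EKO below (background 17.7%) and 2 with EKO above (background 25.1%). Leaving out WT replicate 2 cannot undo such a separation, so it is no check of it (backgrounds then 21.4% and 31.1%). Whether these shares differ from the background was not tested. The median log2 difference was -0.90 over the 8 tested members and 0.02 over all genes tested.

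DESeq2's Wald test on the same counts called 5 members at an adjusted p under 0.05, Car3, Car4 and Car5b as lower (background 10.1%) and Car9 and Car13 as higher (background 10.9%). limma-voom with sample quality weights called the same 5 (backgrounds 10.6% lower and 14.8% higher). The authors' deposited table marks Car3 and Car5b as significantly down (background 5.04%) and Car9 as significantly up (background 5.09%). In that table every marked gene has an adjusted p under 0.05 and an absolute log2 fold change of at least 1, and Car4 and Car13 have an adjusted p under 0.05 with a smaller change. In edgeR without WT replicate 2 no member passed (backgrounds 0.727% lower and 1.96% higher), although 5 had an unadjusted p under 0.05, 3 lower (background 12.9%) and 2 higher (background 14.8%). Among the members the lowest adjusted p was then that of Car4, 0.0508, and Car8 had an unadjusted p of 0.0794 in edgeR's fit.

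**Figure D1:**
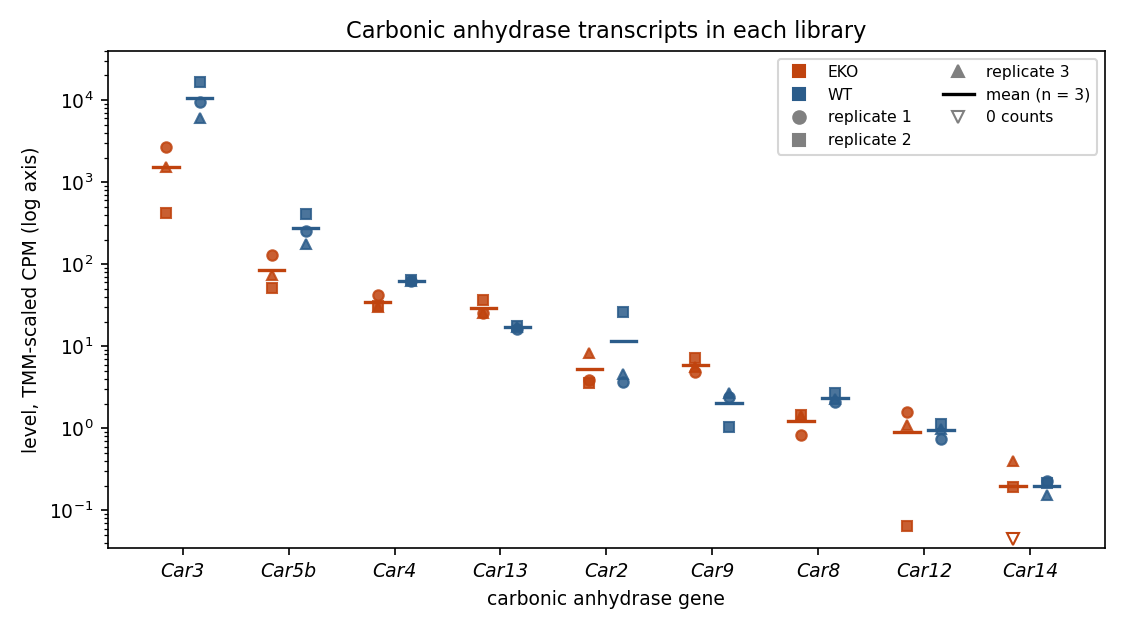
TMM-scaled CPM (log axis) of the 9 carbonic anhydrase genes in each of the 6 libraries. EKO is orange, WT blue, symbols mark replicates 1 to 3, bars are means of 3 libraries and an open triangle marks 0 counts. Car3 lies far above all other members, the EKO points lie below the WT points for Car3, Car5b, Car4 and Car8 and above them for Car9 and Car13.

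Car3 (ENSMUSG00000027559, chromosome 3, 14863512 to 14872523, plus strand, GRCm38) encodes a cytosolic isozyme with low hydratase activity, known in fat, liver and skeletal muscle. Its level was 2691, 421 and 1525 CPM in EKO and 9577, 16474 and 6099.9 CPM in WT. The lowest WT library thus held more than the highest EKO library, and both groups spread widely around their means of 1546 ± 1135 and 10717 ± 5280.2 CPM (SD, n = 3 per group). The fitted difference was 6.93-fold (log2 -2.79 ± 0.76 SE, edgeR adjusted p = 0.0721, DESeq2 adjusted p = 0.000150). Without EKO replicate 1 it was 10.9-fold and without EKO replicate 2 it was 5.13-fold. Without WT replicate 2, the library with the most Car3, the log2 difference was -2.39 ± 0.71 (SE, edgeR adjusted p = 0.103).

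By count, Car3 ranked 5, 3 and 6 among all genes in WT and 22, 350 and 45 in EKO. It took 0.974%, 1.66% and 0.648% of all counts in WT and 0.262%, 0.0381% and 0.155% in EKO. In EKO replicate 2, the library with the least Car3, summed adipocyte markers were also lowest (5523 CPM) and summed macrophage markers highest (10864 CPM). In bulk tissue, fewer adipocytes and less of a transcript per adipocyte cannot be told apart. Skeletal muscle and liver also make Car3. The 8 listed skeletal muscle markers summed to 9.49, 3.34 and 10.01 CPM in EKO and to 13.4, 34.7 and 10.8 CPM in WT. The 9 hepatocyte markers summed to 66.9, 9.56 and 219 CPM in EKO and to 353, 1958 and 130.3 CPM in WT, the WT sum resting mainly on replicate 2. By fitted values 6 of these 9 markers were higher in EKO, with a median log2 of 0.51. The part of muscle and liver transcripts in the Car3 difference was not tested.

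Car5b (ENSMUSG00000031373, chromosome X, 163976822 to 164027997, minus strand) encodes the mitochondrial isozyme. Its level was 129, 50.7 and 75.0 CPM in EKO and 254, 409 and 178 CPM in WT. The order of libraries was the same as for Car3, with EKO replicate 2 lowest and WT replicate 2 highest, and the groups did not overlap. The difference was 3.31-fold (log2 -1.72 ± 0.44 SE, edgeR adjusted p = 0.0670, DESeq2 adjusted p = 0.000744), and 2.64-fold without WT replicate 2. Its mitochondrial paralogue Car5a, a liver isozyme in the mouse, had at most 2 counts in a library.

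Car4 (ENSMUSG00000000805, chromosome 11, 84957786 to 84966044, plus strand) encodes the lipid-anchored isozyme found on capillary endothelium. It was the steadiest member within WT, at 62.3, 63.4 and 62.8 CPM in replicates 1, 2 and 3, against 41.9, 30.8 and 30.2 CPM in EKO. Every EKO library lay below every WT library. The difference was 1.83-fold (log2 -0.87 ± 0.15 SE, edgeR adjusted p = 0.0628, DESeq2 adjusted p = 7.95e-05). The edgeR value equalled the lowest adjusted p of any gene in the fit, but it is a tie that does not single out Car4. Slc4a1, Slc9a3r1, Chp1, Hvcn1, Slc2a1 and Pfkfb4, described below, had the same adjusted p. Summed endothelial markers were also lower in EKO, at 963, 474 and 701 CPM in EKO and 1461, 1280.4 and 1441 CPM in WT. All 9 of those markers were lower in EKO by their fitted values. Within EKO, replicate 1 was highest for both Car4 and the endothelial sum. The remaining Car4 values of EKO, and those of WT, lay too close together to be ordered. The part of endothelial transcripts in the Car4 difference was not tested.

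Car9 (ENSMUSG00000028463, chromosome 4, 43506966 to 43513729, plus strand) encodes a membrane-spanning isozyme best known as a target of hypoxia-inducible factor in tumours. It had 82, 111 and 99 counts in EKO and 43, 19 and 52 counts in WT, or 4.84, 7.12 and 5.66 against 2.43, 1.03 and 2.67 CPM. The EKO values lay close together and above all WT values, and WT replicate 2 was the lowest. The difference was 2.86-fold (log2 1.52 ± 0.40 SE, edgeR adjusted p = 0.0703, DESeq2 adjusted p = 0.0186), and 2.20-fold without WT replicate 2. An antisense gene, Gm12454, overlaps exons of Car9 and had 17, 10 and 9 counts in EKO and 4, 3 and 6 in WT. No source used here states a strand setting, so reads in the exon bases that Car9 and Gm12454 share cannot be told apart.

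Car13 (ENSMUSG00000027555, chromosome 3, 14641727 to 14663002, plus strand) encodes a cytosolic isozyme with a broad tissue distribution. It was measured at 25.8, 36.4 and 25.5 CPM in EKO and at 16.2, 17.5 and 17.4 CPM in WT. The WT libraries were within a narrow range and every EKO library was above it, EKO replicate 2 the most. The difference was 1.72-fold (log2 0.78 ± 0.18 SE, edgeR adjusted p = 0.0637, DESeq2 adjusted p = 0.00834), and 1.48-fold without EKO replicate 2.

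Car8 (ENSMUSG00000041261, chromosome 4, 8143362 to 8239041, minus strand), the acatalytic member, stood at 0.826, 1.48 and 1.43 CPM in EKO and 2.09, 2.67 and 2.31 CPM in WT. It had 14, 23 and 25 counts in EKO and 37, 49 and 45 counts in WT, with no overlap between the groups. The difference was 1.89-fold lower in EKO (log2 -0.92 ± 0.32 SE), with an edgeR adjusted p of 0.112 and a DESeq2 adjusted p of 0.137.

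Car2 (ENSMUSG00000027562, chromosome 3, 14886273 to 14900770, plus strand) encodes the fast cytosolic isozyme of red cells, kidney and osteoclasts. It reached 3.83, 3.53 and 8.35 CPM in EKO and 3.67, 26.5 and 4.57 CPM in WT. WT replicate 2 alone was high, and the other 5 libraries overlapped. The fitted log2 difference of -1.14 ± 0.83 (SE, edgeR adjusted p = 0.366) became 0.30 ± 0.45 without that library (edgeR adjusted p = 0.710). The sums of 7 of the 14 marker lists were also highest in WT replicate 2, those of adipocyte, mesothelial, skeletal muscle and nerve markers and of germ cell markers (2079.6 CPM), hepatocyte markers (1958 CPM) and red cell markers (1617 CPM, against 883 and 1246 CPM in WT replicates 1 and 3 and 174 to 421 CPM in EKO). Their part in the Car2 value was not tested. Osteoclast-type and lipid-associated macrophage markers, which include other osteoclast genes, summed to 11885 to 21362 CPM in EKO against 802 to 3221 CPM in WT. That direction is opposite to the fitted Car2 difference with all libraries and the same as the one without WT replicate 2. The part of these markers was not tested either.

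Car12 (ENSMUSG00000032373, chromosome 9, 66713686 to 66766845, plus strand), a further membrane-spanning isozyme, had 27, 1 and 19 counts in EKO and 13, 21 and 19 counts in WT. The groups overlapped, and the log2 difference was -0.05 ± 0.84 (SE, edgeR adjusted p = 0.971). EKO replicate 2, with 1 count, carried much of that error. Without it the log2 difference was 0.47 ± 0.38 (SE, edgeR adjusted p = 0.531), and without WT replicate 2 the difference was 0.05. Car14 (ENSMUSG00000038526, chromosome 3, 95897768 to 95904691, minus strand), another membrane-spanning isozyme, had 0, 3 and 7 counts in EKO and 4, 4 and 3 in WT and was too low to test. Exons of Car14 overlap those of Aph1a on the opposite strand, a gene with 768 to 1290 counts per library.

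**Figure D2:**
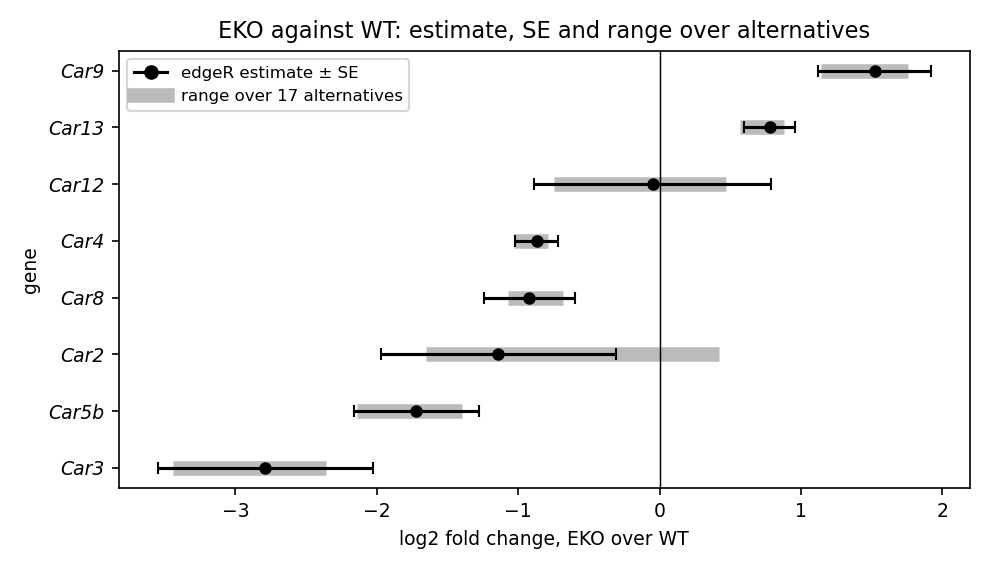
edgeR log2 fold change of EKO over WT for the 8 tested carbonic anhydrases, with its SE (black) and the range of the estimate over 17 alternative analyses (grey). Car3, Car5b, Car8 and Car4 stayed below 0 and Car13 and Car9 above 0 in every alternative, while the ranges of Car2 and Car12 crossed 0.

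Summed over the 9 members, carbonic anhydrase transcript was 2898, 551 and 1673 CPM in EKO and 9919, 16995 and 6369 CPM in WT. The means of 1707 ± 1174 and 11094 ± 5410 CPM (SD, n = 3) differed 6.50-fold, and the groups did not overlap. The log2 difference of the sum was -2.70 with all libraries and -2.25 without WT replicate 2. Car3 carried 92.8%, 76.4% and 91.2% of the sum in EKO and 96.6%, 96.9% and 95.8% in WT. The 8 members other than Car3 summed to 208, 130 and 148 CPM in EKO and to 342, 521 and 269 CPM in WT. Their means of 162 ± 40.6 and 377 ± 130 CPM were 2.33-fold apart. WT replicate 2 was the highest, and this fold was not computed without it.

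Levels of different genes were compared per kilobase of exon. In WT the order of mean levels was Car3 (3741 CPM per kilobase), Car5b (44.1), Car4 (32.0), Car13 (7.40), Car2 (4.78), Car9 (0.888), Car8 (0.612), Car12 (0.125) and Car14 (0.0784). The libraries of neighbours overlapped for Car5b and Car4, for Car13 and Car2, and for Car9 and Car8. In EKO the order was Car3 (539 CPM per kilobase), Car4 (17.4), Car5b (13.4), Car13 (12.7), Car9 (2.55), Car2 (2.16), Car8 (0.323), Car12 (0.120) and Car14 (0.0777), with overlap among Car4, Car5b and Car13, between Car9 and Car2, and between Car12 and Car14.

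The make-up of the family apart from Car3 is described here by shares. Mitochondrial Car5b held 35.6%, 17.9% and 26.3% of the summed CPM per kilobase of the 8 members other than Car3 in EKO and 48.8%, 55.2% and 39.3% in WT. Cytosolic Car13 held 19.7%, 35.6% and 24.7% in EKO and 8.57%, 6.54% and 10.6% in WT. Both shares were separate between the groups, in opposite directions. Shares of a whole are not independent, since a lower share of Car5b raises the shares of the others. The share of Car9 was also separate, at 3.69%, 6.95% and 5.48% in EKO and 1.29%, 0.385% and 1.62% in WT. The share of Car4 overlapped, from 34.3% to 37.4% in EKO and from 27.7% to 44.8% in WT. With 3 libraries against 3, an exact permutation test of such a share cannot give a two-sided p below 0.1.

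**Figure D3:**
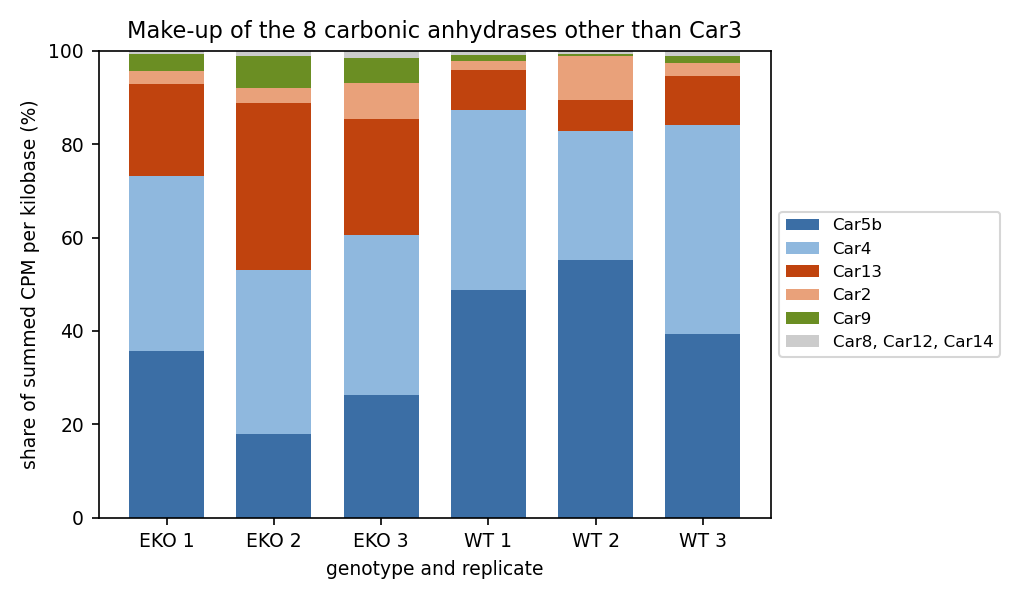
Share (%) of each gene in the summed CPM per kilobase of the 8 carbonic anhydrases other than Car3, 1 bar per library. Car5b takes 39.3% to 55.2% of the WT bars and 17.9% to 35.6% of the EKO bars, and Car13 takes 6.54% to 10.6% and 19.7% to 35.6%.

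Each member was also set against the cell type markers in the same library, as its log2 CPM minus the mean log2 CPM of a marker list. This comparison was chosen after the data were seen and gave 24 values (8 members against 3 lists). None of its exact two-sided permutation tests can go below 0.1, and the lowest adjusted p over the 24 was 0.185. The distance of Car5b from the 13 adipocyte markers overlapped between the genotypes, at -2.16 ± 0.23 in EKO and -2.17 ± 0.27 in WT (SD, n = 3; exact permutation p = 1.0, adjusted p = 1.0). Car3 stood 1.76 ± 0.59 log2 units above these markers in EKO and 3.05 ± 0.39 above them in WT, with no overlap (difference -1.28, exact permutation p = 0.1). This is a distance from the mean of the list. Its member Retn had a fitted log2 difference of -2.89, near the -2.79 of Car3. Car4 was nearer to the adipocyte markers in EKO than in WT (difference 0.87, exact permutation p = 0.1), and overlapped between genotypes relative to the 9 endothelial markers (difference 0.16, exact permutation p = 0.6).

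For Car9 and Car13, both higher in EKO, the genotype difference was lower relative to the 11 macrophage markers than relative to adipocyte markers. Macrophage markers were higher and adipocyte markers lower in EKO, and each list mean is subtracted from every member alike. The same shift between lists therefore arises for every member and is no trait of Car9 or Car13. Car9 stood at -5.72 ± 0.18 in EKO and -6.04 ± 0.11 in WT, a difference of 0.31 against 3.31 relative to adipocyte markers. Car13 stood at -3.52, -3.39 and -3.39 in EKO and at -3.27, -2.22 and -3.36 in WT. Its difference of -0.49 was thus opposite in sign to its CPM difference and had the largest deviation in WT replicate 2, the library with the lowest macrophage marker sum (1721 CPM).

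**Figure D4:**
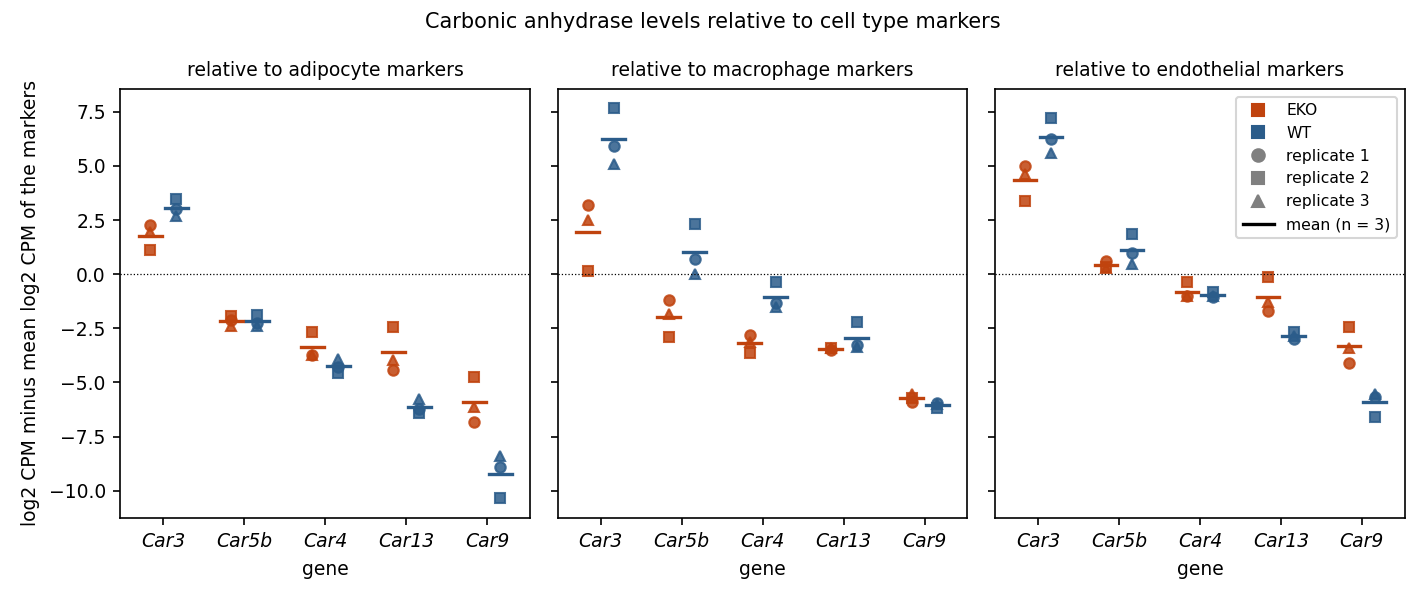
Log2 CPM of 5 carbonic anhydrases minus the mean log2 CPM of adipocyte, macrophage or endothelial markers in the same library. Points are libraries and bars are means of 3. Car5b is level between EKO and WT relative to adipocyte markers, Car4 overlaps relative to endothelial markers, and Car3 is lower in EKO relative to all 3 lists.

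Car13, Car1, Car3 and Car2 lie in 1 cluster of 259 kilobases on chromosome 3, in that order. Along it, Car13 was higher in EKO, Car3 was lower, and Car2 overlapped between genotypes. Car1, a red cell isozyme on the minus strand between Car13 and Car3, had 2, 1 and 4 counts in EKO and 7, 27 and 7 in WT and was too low to test. Summed red cell markers were likewise lower in EKO. Among the other family genes, Car7 (cytosolic) stood at 4.42, 2.31 and 3.09 CPM in EKO and 5.09, 5.83 and 4.77 CPM in WT (log2 -0.67 ± 0.30 SE, edgeR adjusted p = 0.174). Car11, an acatalytic member, and Car6, the secreted isozyme of saliva, overlapped between genotypes (edgeR adjusted p = 0.438 and 0.570). Car5a, Car10 and Car15 had at most 3 counts in any library.

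The genes whose pattern over the 6 libraries was most like a member were taken from 10085 genes of at least 10 CPM, by the root mean square difference of centred log2 CPM. The closest to Car3 were Ces1d (0.18 log2 units), a carboxylesterase of adipocytes and liver, Gm454 (0.21) and Retn (0.26). Retn encodes the adipocyte hormone resistin and is also in the adipocyte marker list. For Car5b they were Dhtkd1 (0.07) and Aldh5a1 (0.13), both mitochondrial dehydrogenase genes, and Ephx2 (0.13). For Car4 they were Mtss1l (0.05), Afap1 (0.07) and Agtr1a (0.08), the last an angiotensin receptor. For Car9 they were Tgif1 (0.07), Shtn1 (0.08) and Mical1 (0.08), for Car13 Cacul1 (0.05), Akr1b3 (0.05) and Capza1 (0.06), for Car8 Nav3 (0.16), Uck2 (0.19) and Dtd1 (0.20), and for Car2 Fam46c (0.16), Efhd1 (0.18) and Lyar (0.24). These libraries share the genotype difference and the marker differences given above, so likeness here describes 6 points.

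A list of carboxylases that use bicarbonate, which also holds the biotin genes Hlcs and Btd, was mostly lower in EKO. Of 10 tested carboxylase and biotin genes 9 were lower, 8 with an unadjusted p under 0.05 and 7 called by DESeq2, with a median log2 of -1.13, and 0 passed in edgeR. Over all genes tested 48.7% were lower, 13.8% lower with an unadjusted p under 0.05 and 10.1% called lower by DESeq2. Pyruvate carboxylase (Pcx), the partner of mitochondrial carbonic anhydrase named above, stood at 394, 153 and 261 CPM in EKO and at 880, 954 and 514 CPM in WT. That is 2.90-fold lower (log2 -1.54 ± 0.40 SE, edgeR adjusted p = 0.0692), with EKO replicate 2 lowest and WT replicate 2 highest as for Car5b. Acetyl-CoA carboxylase Acaca, the first committed enzyme of fatty acid synthesis, was 2.13-fold lower (85.1 ± 15.2 against 181 ± 63.1 CPM). The propionyl-CoA carboxylase subunits Pcca and Pccb were 2.14-fold and 2.25-fold lower, and all 4 had an edgeR adjusted p between 0.0639 and 0.0692. Summed adipocyte markers moved with these genes, and their part was not tested.

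Bicarbonate transporters were split. Of 8 tested, 3 were higher and 5 lower; the median log2 difference was -0.17, and DESeq2 called 1, while edgeR called 0 and had 1 higher and 2 lower at an unadjusted p under 0.05 (18.9% and 13.8% of all genes). The gene called by DESeq2, as lower (10.1% of all genes), was Slc4a1, the anion exchanger of red cells, at 0.284 ± 0.166 CPM in EKO and 2.14 ± 0.392 CPM in WT (edgeR adjusted p = 0.0628), and it is also 1 of the red cell markers. The widely expressed exchanger Slc4a2 was 1.42-fold higher (94.5 ± 4.14 against 66.7 ± 11.0 CPM, edgeR adjusted p = 0.0760), and the sodium bicarbonate cotransporter Slc4a4 averaged 19.7 ± 1.79 against 29.0 ± 8.28 CPM (edgeR adjusted p = 0.138). Slc26a11 was 24.7 ± 0.879 against 17.9 ± 4.91 CPM with an edgeR adjusted p of 0.186.

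Proton and monocarboxylate transport genes also went both ways, 9 of 16 tested higher and 7 lower, at a median log2 of 0.14. DESeq2 called 6 higher and 3 lower (10.9% and 10.1% of all genes), and edgeR 0, with 7 higher and 4 lower at an unadjusted p under 0.05 (18.9% and 13.8% of all genes). The proton channel Hvcn1, a gene of phagocytes, was 4.30-fold higher (21.6, 60.7 and 33.4 against 10.4, 5.72 and 10.8 CPM), and the lactate exporter Slc16a3 was 2.96-fold higher (18.5 ± 8.10 against 6.23 ± 1.20 CPM). Slc9a3r1, a scaffold of the sodium-proton exchanger, was 2.17-fold higher, and Chp1, a calcium-binding cofactor of those exchangers, was 1.70-fold lower (334 ± 51.8 against 570 ± 38.2 CPM). These 4 had edgeR adjusted p between 0.0628 and 0.0630. Macrophage marker sums moved with Hvcn1 and Slc16a3, and their part was not tested.

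Car9 and Car12 are known hypoxia targets. A list of other hypoxia targets, which also holds HIF pathway regulators such as Hif1a and Vhl, went both ways. Of 27 tested hypoxia and HIF pathway genes 10 were higher and 17 lower, while 48.7% of all genes tested were lower. The median log2 difference was -0.06. Calls by DESeq2 were 4 higher and 7 lower (against 10.9% and 10.1% of all genes), and by edgeR 0, with 6 higher and 8 lower at an unadjusted p under 0.05 (against 18.9% and 13.8%). The glucose transporter Slc2a1 was 3.42-fold higher (42.9, 95.6 and 46.3 against 16.8, 14.5 and 22.7 CPM) and the glycolytic regulator Pfkfb4 was 1.78-fold higher (80.1 ± 18.3 against 45.0 ± 3.24 CPM). Hexokinase Hk2 was 2.21-fold lower (45.1 ± 11.4 against 99.8 ± 25.2 CPM), and Pfkfb3, another glycolytic regulator, was 3.03-fold lower (335 ± 155 against 1018 ± 167 CPM). All 4 had edgeR adjusted p between 0.0628 and 0.0641. Slc2a1 was highest, and Hk2 and Pfkfb3 lowest, in EKO replicate 2, the library with the highest macrophage and the lowest adipocyte marker sum, and the part of these markers was not tested.

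The core letters bound by hypoxia-inducible factors, ACGTG and GCGTG, were looked for on both strands of RefSeq promoter windows (GRCm38.p6), 250 bases before to 50 bases after each start. Windows were at hand for 5 members. The windows of Car9 (higher in EKO), Car12 (overlapping between genotypes) and Car5b (lower in EKO) are shown, 5′ to 3′ on the strand of each gene, because these 3 cover the range of responses among them; capitals mark a core or its reverse complement.

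Car9: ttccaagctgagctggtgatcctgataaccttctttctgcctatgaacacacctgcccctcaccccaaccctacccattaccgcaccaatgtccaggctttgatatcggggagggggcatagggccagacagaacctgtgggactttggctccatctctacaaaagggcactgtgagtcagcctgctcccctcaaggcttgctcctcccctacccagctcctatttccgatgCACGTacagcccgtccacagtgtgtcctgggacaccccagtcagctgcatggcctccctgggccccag
Car12: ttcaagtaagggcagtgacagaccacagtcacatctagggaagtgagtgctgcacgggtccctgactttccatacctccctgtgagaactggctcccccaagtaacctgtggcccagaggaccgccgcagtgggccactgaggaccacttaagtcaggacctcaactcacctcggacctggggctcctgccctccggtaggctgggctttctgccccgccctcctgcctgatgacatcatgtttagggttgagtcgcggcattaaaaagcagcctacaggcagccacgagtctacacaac
Car5b: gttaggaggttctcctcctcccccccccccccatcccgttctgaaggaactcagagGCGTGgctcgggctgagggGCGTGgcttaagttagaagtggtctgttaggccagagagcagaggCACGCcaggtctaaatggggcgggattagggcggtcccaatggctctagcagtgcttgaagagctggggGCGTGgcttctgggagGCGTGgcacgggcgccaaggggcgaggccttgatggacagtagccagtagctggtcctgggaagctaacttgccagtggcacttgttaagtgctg

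The Car9 window (chr4:43506776-43507075, plus strand) held 1 core, ACGTG on the opposite strand, whose leftmost base lies 18 bases before the RefSeq start. That start lies downstream of the Car9 gene start given above, so the core falls inside those gene coordinates. The Car5b window (chrX:164027961-164028260, minus strand) held 5 GCGTG cores, and the Car12 window (chr9:66713436-66713735, plus strand) held 0. Car4 and Car14 held 1 ACGTG core each. Among 32851 windows of the same length, 43.8% held either core, 19.6% ACGTG and 32.4% GCGTG. A core was thus present both in a gene that was higher in EKO and in genes that were lower, and a match in these letters is a description of the sequence.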

How the data were processed

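Messenger RNA of epididymal fat was sequenced in 3 EKO and 3 WT libraries. Per the labels' protocols, TRIzol-extracted RNA was made into Illumina mRNA libraries, and the submitters' processing notes name the build GRCm38. No source used here names the aligner, counter or strand setting. The authors deposited raw read counts per gene for each library, per the file headers, which gave the totals above. The same table holds the authors' mean signal, their linear fold change, the log2 of it, and their p-value and adjusted p-value. The authors' mean signal matches the average of counts scaled by DESeq2 size factors (median relative difference 2.79e-06), and the deposited log2 values match a DESeq2 fit of these counts (median difference 1.61e-05).

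Groups and replicate numbers come from the labels. Counts were tested with edgeR 4.0.16 (filterByExpr, TMM, quasi-likelihood F test, genotype as the sole term, Benjamini-Hochberg adjustment over 16121 genes, threshold 0.05) in R 4.3.3, checked on simulated data. The standard error of a log2 fold change was taken from its F statistic. Fold changes of single genes are fitted values, while those of summed levels are ratios of group means and were not tested. Exon lengths are unions of GENCODE exons, which give the same coordinates as the deposited table for all 9 members. Floors of 3 counts cover counting error alone. Alternatives were other scalings and count filters, DESeq2 1.42.0, limma-voom 3.58.1 with and without quality weights, a replicate block, each library left out and a threshold of 0.10. The newer edgeR dispersion fit, robust edgeR and the ratios to marker lists were added after the data were seen.

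The members and gene lists were chosen with earlier results of these data known. The genes named are the 9 members, Eepd1, the 4 tested genes with the smallest p in each of 5 pathway lists (3 were tested among the other family genes), and the 3 genes most like each tested member of at least 1 CPM. The untested Car1, Car5a, Car10 and Car15, and the genes overlapping Car9 and Car14, were named outside this rule. Markers of 14 cell types were summed per library. For cell types not discussed in the results, the sums ran from 34.7 to 199 CPM in EKO and 121 to 348 CPM in WT for 8 mesothelial markers, and from 7256 to 10355 and 3827 to 5333 CPM for 8 fibroblast and progenitor markers. They ran from 1.60 to 8.01 and 6.67 to 18.7 CPM for 12 listed epididymal epithelium markers, 141 to 797 and 50.0 to 69.4 CPM for 7 mast cell markers, 11.6 to 15.1 and 7.79 to 16.1 CPM for 5 listed neutrophil markers, and 152 to 204 and 239 to 328 CPM for 6 nerve markers.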

Additional observations from a re-analysis of the deposited data

How the results depend on the processing

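In edgeR, 0 genes passed with every scaling and count filter tried, with the replicate block, robust edgeR and the newer dispersion fit, and limma-voom also called 0. DESeq2 called 3392 genes, limma-voom with quality weights 4101, and edgeR at a threshold of 0.10 called 3560. Leaving out 1 library at a time gave 0 to 443 calls, the 443 without WT replicate 2. Of the alternative values of the 8 tested members (17 each), 121 kept their direction and side of the threshold, 10 passed it (Car3, Car4, Car5b, Car9 and Car13, each with DESeq2 and with quality weights) and 5 reversed. The reversals were Car2 with quality weights (log2 0.42) and without WT replicate 2 (0.30), and Car12 with quality weights (0.15), without EKO replicate 2 (0.47) and without WT replicate 2 (0.05). Leaving out 1 library gave -1.65 to 0.30 for Car2 and -0.69 to 0.47 for Car12; the cause was not tested. Over all alternatives the adjusted p ranged from 0.000150 to 0.229 for Car3, 7.95e-05 to 0.229 for Car4, 0.000744 to 0.229 for Car5b, 0.0177 to 0.256 for Car9 and 0.00834 to 0.229 for Car13. Deviations from the group means correlated at 0.27, -0.31 and -0.35 between libraries of the same replicate number. These differ in sign, and with 3 libraries per group they cannot settle whether the numbers pair the libraries. With the replicate block Car3 had a log2 difference of -2.93, Car5b -1.73, Car4 -0.89, Car9 1.59 and Car13 0.76, and 0 genes passed. The log2 difference of the summed 9 members, -2.70, was -1.22 without Car3, -2.76 with library totals and -2.25 to -3.32 with 1 library left out. The members' order by level over all 6 libraries was the same with and without division by length. No log2 difference of Car14 is compared here, since it fell under the count filter of the reported fit; it is part of the sum and of the order.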
